A study of Hordeum vulgare with 12 samples.

Results

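The gene for the kinase *ATR* lies near the end of barley chromosome 7H, and the genes described here are its neighbours in the order of the Morex v3 identifiers. Every row of the count table from HORVU.MOREX.r3.7HG0747010 to HORVU.MOREX.r3.7HG0753010 was taken, and rows with 0 counts in all 12 libraries were dropped. Of 616 rows, 322 had counts, among 42453 rows with counts in the whole table. A row is a transcript model, and the 322 rows belong to 319 genes. Each row was tested on its own and is called a gene below. The stretch ends with the last 7H identifiers in the table. The identifiers are given below without the prefix HORVU.MOREX.r3, and identifier order stands for position because base coordinates were not used here. Poly(A) RNA had been sequenced from dissected root apices of 7-day-old barley plants (*Hordeum vulgare*), kept for 6 h in liquid medium with 500 µg/ml zeocin or without it (mock). The groups were *hvatr.g* with zeocin, *hvatr.g* mock, WT with zeocin and WT mock, with 3 libraries in each, and WT was cv. Sebastian. *hvatr.g* is a single TILLING allele of *ATR* in the Sebastian background. The sources used here give no second allele and no complemented line, so a difference between *hvatr.g* and WT cannot be told apart from the effect of any other variant that the mutant line carries.

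ATR is a protein kinase that is activated at single-stranded DNA, such as arises at stalled replication forks, and that slows the cell cycle and starts repair. Zeocin is a radiomimetic agent that breaks DNA strands. TILLING mutants come from chemically mutagenised plants, so a line carries many mutations beside the chosen one. Variants close to the chosen allele are inherited with it and are the hardest to remove by crossing, which is why the expression of linked genes was compared here between the genotypes.

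Of equal stretches of 7H, the one around *ATR* held the highest share of genes lower in *hvatr.g* in both treatments. Among the lower genes were thionin-like, oxygenase, GDSL esterase/lipase and O-methyltransferase genes, 1 of them, a thionin-like gene, without a single count in *hvatr.g*. A gene was tested if its counts passed a filter on low values, and it was called where the edgeR adjusted p fell under 0.05 and the log2FC, the base 2 logarithm of the fold change, reached 1 or -1. Of the 322 rows with counts, 184 were tested. Under mock conditions 24 were called lower and 5 higher in *hvatr.g* than in WT, which is 13.0% and 2.72% of those tested. Over all 26039 tested genes the shares were 4.58% lower and 3.87% higher, or 8.45% in either direction, against 15.8% of the stretch. Under zeocin 24 genes of the stretch were called lower and 4 higher in *hvatr.g*, or 13.0% and 2.17%. The background was 5.56% lower and 3.46% higher, or 9.02% in either direction, against 15.2% of the stretch. The median log2FC over the 184 genes was -0.12 under mock and -0.14 under zeocin, while over all tested genes it was 0.02 and 0.00. These medians were the same when the genes with no counts in an *hvatr.g* group were set to the bounds given below.

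Chromosome 7H was tiled from the *ATR* stretch into 18 other whole stretches of the same identifier length, with 123 to 250 tested genes. In none of the 18 was the share called lower in *hvatr.g* as high as in the *ATR* stretch. Under mock it was at most 9.94% with a median of 3.77%, and under zeocin at most 10.7% with a median of 4.22%. For the share called higher, 11 of the 18 stretches lay above the *ATR* stretch under mock and 14 under zeocin. The median log2FC of the *ATR* stretch was below that of all 18 in both comparisons, the next lowest being -0.08 under mock and -0.11 under zeocin. Both stretches at the opposite end of the tiling, 7HG0638830 to 7HG0644830 and 7HG0644840 to 7HG0650840, came closest, with 9.94% and 9.29% of genes called lower under mock. The share of rows with any counts was 52.3% against a median of 52.4% in the other stretches. Part of the lower calls in the *ATR* stretch came from 1 group of genes near its end, described below. Without the identifiers 7HG0752310 to 7HG0752800, a window chosen after its values were seen, 19 of 174 genes (10.9%) were lower under mock and 18 (10.3%) under zeocin. In that case no other stretch was above 10.9% under mock and 2 were above 10.3% under zeocin. Calls in either direction then made up 13.8% under mock and 12.6% under zeocin, with 1 and 4 other stretches above. The median log2FC was then -0.09 under mock and -0.10 under zeocin, the latter no longer below the lowest other median of -0.11. For the whole stretch with DESeq2, 1 other stretch had a higher share called lower under zeocin, both at 13.0% after rounding.

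**Figure D1:**
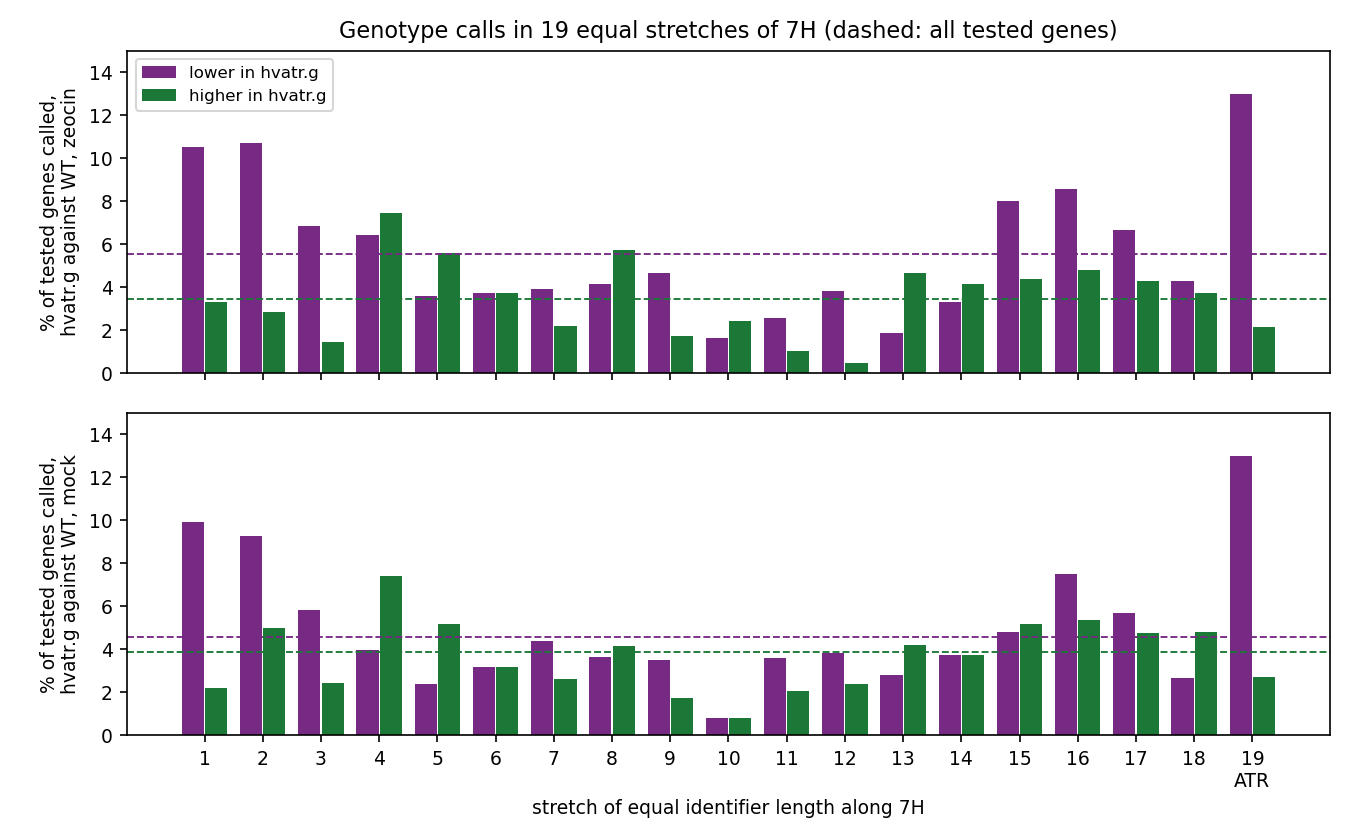
Share of tested genes called lower (purple) and higher (green) in *hvatr.g* than in WT, in %, in 19 stretches of equal identifier length along 7H, under zeocin (upper panel) and mock (lower panel). Dashed lines mark the shares over all 26039 tested genes, and the *ATR* stretch at the right has the tallest purple bar in both panels, 13.0%.

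The genotype comparisons of both treatments share no libraries. The fit took the spread of each gene from all 12 libraries, however, so the calls of both are not independent. Of the 29 genes called under mock and the 28 called under zeocin, 18 were called in both, or 62.1% of the first list and 64.3% of the second, and all 18 kept their direction, 16 lower and 2 higher in *hvatr.g*. Among all tested genes the shares were alike, 64.1% and 60.0%. In 28 of the 184 genes (15.2%) the CPM values, counts scaled to the TMM-adjusted size of each library, of all 6 *hvatr.g* libraries lay below those of all 6 WT libraries, against 7.75% of all tested genes. All 6 lay above in 8 genes (4.35%), against 6.37% of all tested genes.

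Along the stretch, 4 of 45 tested genes were lower under mock and 1 of 45 under zeocin on the side before *ATR*. Within 50 identifiers after it, 3 of 14 were lower in each comparison, and in the next 50 identifiers 5 of 17 under mock and 4 of 17 under zeocin. Up to 200 identifiers none of 32 was lower under mock and 2 were under zeocin. Beyond that, up to 445 identifiers, 12 of 75 were lower under mock and 14 of 75 under zeocin. Only 2 runs of 3 or more neighbouring tested genes were called in the same direction in at least 1 comparison, both lower in *hvatr.g* and both near the end of the stretch. The first held 7HG0752290, 7HG0752310, 7HG0752330 and 7HG0752340, the second 7HG0752450, 7HG0752470 and 7HG0752530.

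**Figure D2:**
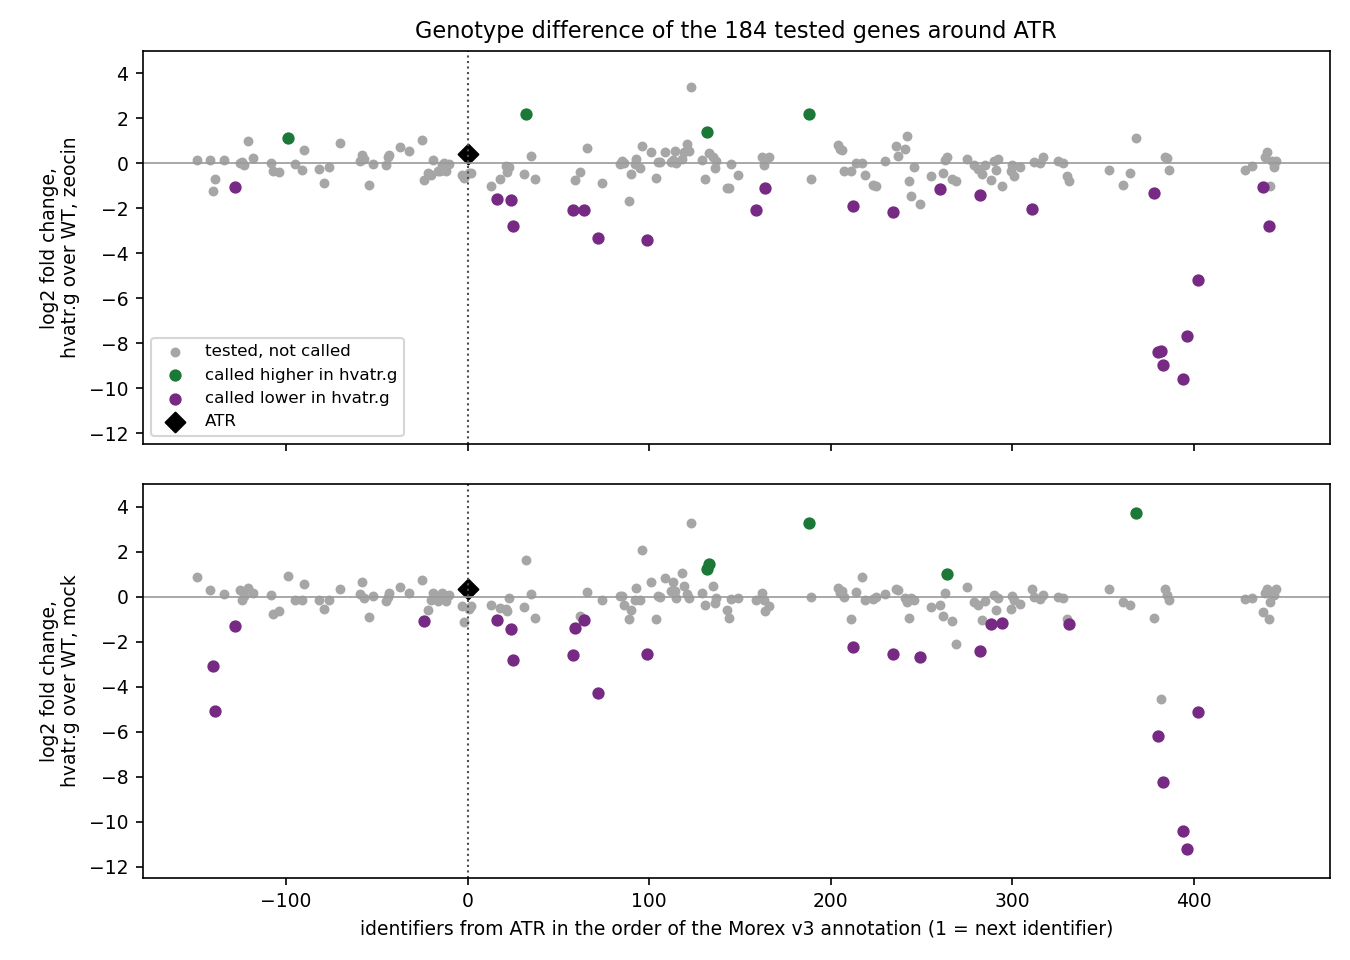
Log2FC of *hvatr.g* over WT for the 184 tested genes, under zeocin (upper panel) and mock (lower panel), against the number of identifiers from *ATR* (black diamond, dotted line). Purple points are called lower, green points called higher and grey points not called; the deepest purple points lie about 380 to 402 identifiers after *ATR*.

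*ATR* itself was not called. It was at 20.5, 15.4 and 13.1 CPM in mock-treated *hvatr.g* and at 13.3, 15.4 and 9.85 CPM in mock-treated WT, so that the groups overlapped. Under zeocin it was at 17.7, 14.3 and 15.2 CPM in *hvatr.g* and at 11.4, 13.9 and 9.67 CPM in WT, where every *hvatr.g* library lay above every WT library. The log2FC was 0.35 ± 0.21 (SE, the standard error, edgeR adjusted p = 0.299) under mock and 0.43 ± 0.21 (SE, edgeR adjusted p = 0.183) under zeocin. Zeocin did not change it detectably in either genotype, with log2FCs of -0.06 in *hvatr.g* and -0.14 in WT. A TILLING allele usually carries a changed base and not a missing gene, so the level of the mRNA does not check the genotype labels.

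None of the 3 nearest tested genes on each side of *ATR* was called either. Before *ATR*, 7HG0748410 was level at 47.8 to 57.6 CPM in *hvatr.g* and 48.7 to 57.1 CPM in WT. 7HG0748480 was at 43.4 to 56.6 CPM in *hvatr.g* and 45.9 to 85.0 CPM in WT. The low-level 7HG0748490, the nearest tested gene before *ATR*, was below WT in every *hvatr.g* library, at 0.24 to 0.583 CPM against 0.716 to 0.937 CPM in WT (edgeR adjusted p = 0.0654 under mock). After *ATR*, 7HG0748520 was at 23.6 to 38.1 CPM in *hvatr.g* and 31.4 to 49.1 CPM in WT. 7HG0748530 was at 35.0 to 53.0 CPM in *hvatr.g* and 38.9 to 82.5 CPM in WT, and 7HG0748640 at 0.144 to 0.957 CPM in *hvatr.g* and 0.535 to 1.68 CPM in WT. Apart from 7HG0748490, the ranges of the genotypes overlapped for each of them. No description was at hand for these 6 genes.

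**Figure D3:**
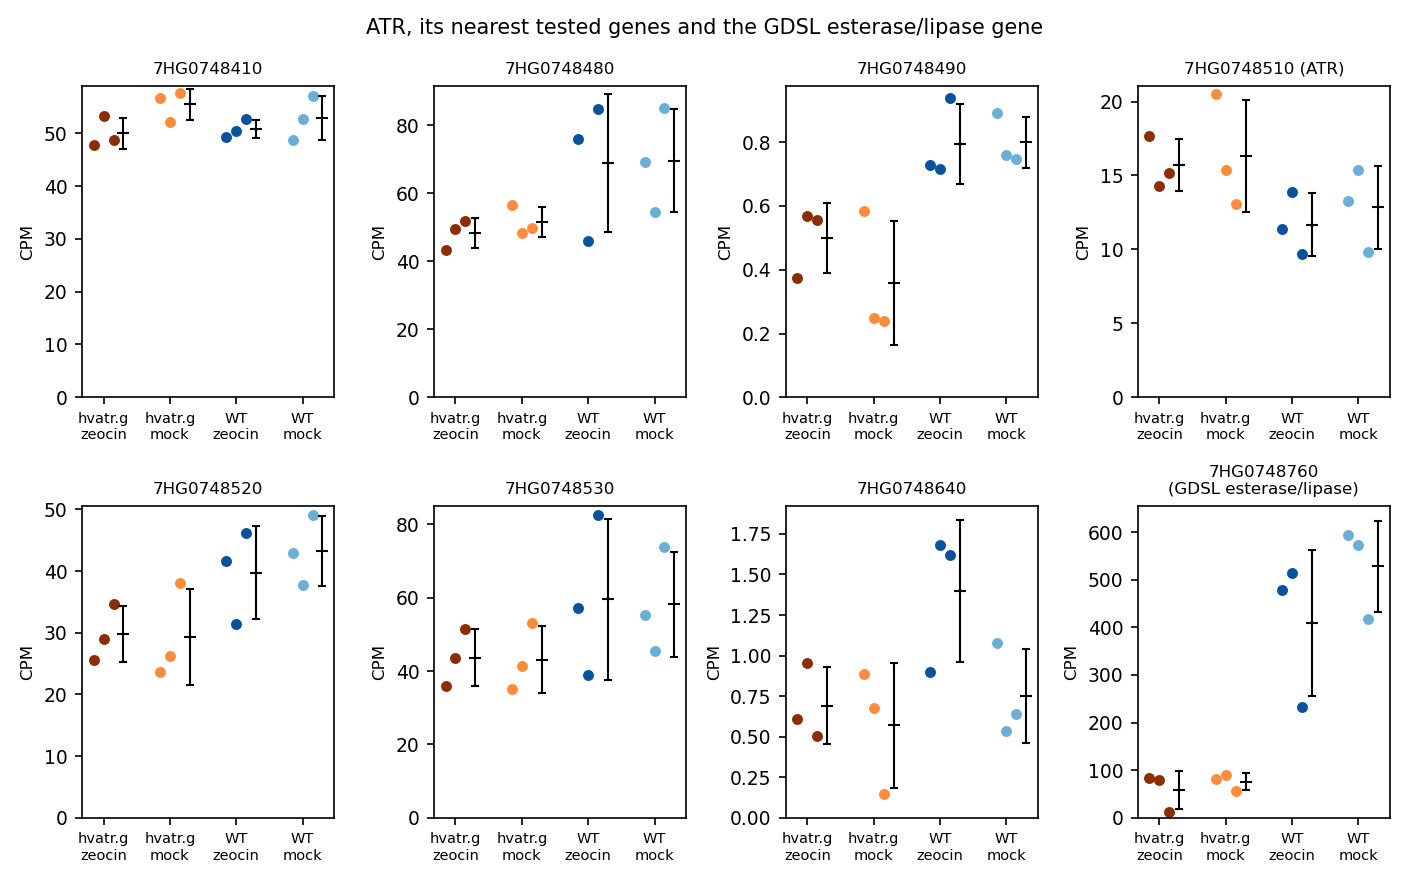
CPM in each of the 12 libraries for *ATR*, the 3 nearest tested genes on each side and the GDSL esterase/lipase gene 7HG0748760, by group, with mean and SD (n = 3) beside the points. The points of *ATR* lie between 9.67 and 20.5 CPM, and those of 7HG0748760 fall into a low set in *hvatr.g* and a high set in WT.

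On the side after *ATR*, a first group of lower genes began at 16 identifiers. Its most abundant member was 7HG0748760, a GDSL esterase/lipase, a class of enzymes that cleave ester bonds in lipids and other substrates. It was at 81.9, 89.1 and 56.5 CPM in mock-treated *hvatr.g* against 593, 572 and 418 CPM in mock-treated WT. Under zeocin it was at 84.3, 78.5 and 13.0 CPM in *hvatr.g* against 478, 514 and 233 CPM in WT. In both comparisons all *hvatr.g* libraries lay far below all WT libraries, and replicate 3 was the lowest of each group. The log2FC was -2.80 in each, with an SE of 0.54 (edgeR adjusted p = 0.00475 under mock and 0.00521 under zeocin). Its neighbour 7HG0748750 fell in *hvatr.g* to 2.40, 2.12 and 3.48 CPM under mock, against 7.31, 8.20 and 6.03 CPM in WT. 7HG0748670 was also called lower in both comparisons, with log2FCs of -1.02 under mock and -1.60 under zeocin. In the opposite direction, 7HG0748830, listed by the study under protein phosphorylation, was at 6.49, 4.73 and 3.57 CPM in zeocin-treated *hvatr.g* against 0.812, 2.04 and 0.38 CPM in zeocin-treated WT. Its log2FC of 2.20 ± 0.61 (SE, edgeR adjusted p = 0.0282) was lost without any of 4 libraries, *hvatr.g* zeocin replicate 1 or 2 or WT zeocin replicate 1 or 3, where the adjusted p reached 0.0927.

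Farther on lay the O-methyltransferase gene 7HG0749230, whose enzyme class transfers methyl groups to hydroxyl groups of small molecules. It was at 1.05, 1.44 and 1.58 CPM in mock-treated *hvatr.g* against 26.4, 33.9 and 17.9 CPM in mock-treated WT. Under zeocin it was at 2.32, 0.879 and 0.532 CPM in *hvatr.g* against 11.3, 17.1 and 9.42 CPM in WT. The log2FCs were -4.27 ± 0.46 (SE, edgeR adjusted p = 0.00012) under mock and -3.31 ± 0.45 (SE, edgeR adjusted p = 0.00076) under zeocin. 7HG0749500, described as a late embryogenesis abundant hydroxyproline-rich glycoprotein, had 11, 18 and 19 counts in mock-treated *hvatr.g* against 75, 68 and 60 counts in mock-treated WT. It was called lower in both comparisons, with log2FCs of -2.57 under mock and -3.41 under zeocin. 7HG0749090, which has no description at hand, was lower by log2FCs of -2.59 under mock and -2.10 under zeocin, and 7HG0749150, a DUF241 domain protein, by -1.03 under mock and -2.10 under zeocin. The mock call of 7HG0749150 was lost under 6 of 20 alternatives, among them leaving out WT mock replicate 3 or *hvatr.g* mock replicate 1 or 2.

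At the start of the stretch, the mock comparison named the neighbours 7HG0747110 and 7HG0747120, both near the limit of detection. 7HG0747110 had 8, 8 and 0 counts in mock-treated *hvatr.g* against 31, 39 and 19 in mock-treated WT, a log2FC of -3.10 ± 0.70 (SE, edgeR adjusted p = 0.0105). 7HG0747120 had 1 count in all in mock-treated *hvatr.g* against 33 in mock-treated WT, 49.2-fold lower with a 95% counting interval of 8.83 to 1943. Under zeocin neither was called, and the *hvatr.g* and WT libraries overlapped. Also before *ATR*, the well expressed 7HG0747230 was called lower in both comparisons, with log2FCs of -1.29 under mock and -1.06 under zeocin. It averaged 45.7 CPM in mock-treated *hvatr.g* and 112 CPM in mock-treated WT. 7HG0748270 was called lower under mock only (log2FC -1.08, edgeR adjusted p = 0.00685). 7HG0751000 had 45, 19 and 8 counts in mock-treated *hvatr.g* against 68, 123 and 89 in mock-treated WT. Its edgeR adjusted p of 0.0303 reached up to 0.105 and lost the call without WT mock replicate 2 or 3 or *hvatr.g* mock replicate 2 or 3.

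The deepest differences lay in a cluster of defence and metabolic genes near the end of the stretch. In the window 7HG0752310 to 7HG0752800, 26 rows had counts. Of these, 21 had more counts in WT than in *hvatr.g* and 16 had none in any *hvatr.g* library, although the 6 *hvatr.g* libraries together were the deeper set, at 294636509 counts against 232329224 in WT. No row of the window was without counts in WT. Over all chromosomes, 107 rows had 0 counts in all *hvatr.g* libraries and a sum of at least 10 in WT, and 7 of them lay in this window. That is 6.54% of such rows in a stretch that holds 0.758% of the rows with counts. The other 7H stretches held 0 to 4 each. No row of the stretch had the reverse pattern, which 116 rows of the table had. Outside the window, the untested 7HG0749200 leaned that way, with 56 counts in *hvatr.g* and 2 in WT.

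Thionins are small cysteine-rich antimicrobial peptides, and 4 genes described as thionin or thionin-like lie side by side from 7HG0752450 to 7HG0752480. 7HG0752450 had 0 counts in each of the 6 *hvatr.g* libraries. In WT it had 79, 88 and 78 counts with zeocin and 62, 284 and 81 counts under mock. It was thus at least 31.1-fold lower in *hvatr.g* under zeocin and at least 70.5-fold lower under mock, counting each *hvatr.g* library as 3 counts. 7HG0752470 had 2 counts in 1 zeocin-treated *hvatr.g* library and 0 in the other 5. In WT it had 139, 120 and 157 counts with zeocin and 114, 504 and 129 under mock. Under mock it was at least 123-fold lower, and under zeocin the ratio was 240-fold with a 95% counting interval of 66.5 to 1984. The fall of both genes was called in both comparisons (edgeR adjusted p from 0.000262 to 0.00277) and held in all 20 alternatives. These 2 were the only genes of the stretch with at most 3 counts in each library of 1 genotype and at least 10 in each of the other. Over all chromosomes 9 rows were near 0 in *hvatr.g* in this way and 12 in WT. The other 7H stretches held 0 of the first kind and 1 of the second. The thionin genes 7HG0752460 and 7HG0752480 were too low to test, with 0 counts in *hvatr.g* and sums of 46 and 6 counts in WT. Near-identical copies could exchange reads, so the 4 levels are uncertain one by one.

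Next to them, 4 genes of the 2-oxoglutarate and Fe(II)-dependent oxygenase superfamily, enzymes that act in hormone and secondary metabolism, followed the same direction with a far wider spread in WT. 7HG0752310 had 0, 27 and 8 counts in zeocin-treated *hvatr.g* against 6699, 3022 and 409 in zeocin-treated WT. Under mock it had 31, 1 and 0 counts in *hvatr.g* against 84, 864 and 472 in WT. 7HG0752340 had 0, 7 and 2 counts in zeocin-treated *hvatr.g* against 2497, 1356 and 195 in zeocin-treated WT. Under mock it had 2, 0 and 0 counts in *hvatr.g* against 13, 283 and 173 in WT, a ratio of 372-fold lower with a 95% counting interval of 103 to 3075. WT libraries of 1 group thus ranged widely, yet for both genes no *hvatr.g* library reached a WT library of the same treatment in CPM. Both were called lower in both comparisons (edgeR adjusted p from 0.00174 to 0.0104), while with limma-voom the adjusted p was 0.104 to 0.284 and no call remained. 7HG0752330 had 2 counts in all in zeocin-treated *hvatr.g* against 644 in zeocin-treated WT, 386-fold lower with a 95% counting interval of 107 to 3187. It was called in edgeR (adjusted p = 0.00689) and not in limma-voom (adjusted p = 0.101). Under mock its 3 counts in *hvatr.g* against 50 in WT gave no call (edgeR adjusted p = 0.119). 7HG0752320 had 0 counts in *hvatr.g* and 20 in WT, and was not tested. Tandem copies of this kind may share reads, which these counts cannot separate.

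7HG0752530, a non specific phospholipase C, an enzyme that cleaves the head group from membrane phospholipids, closed the second run. It had 4, 5 and 0 counts in zeocin-treated *hvatr.g* against 147, 40 and 105 in zeocin-treated WT, and 11, 0 and 0 counts in mock-treated *hvatr.g* against 65, 121 and 56 in mock-treated WT. The log2FCs were -5.18 ± 0.93 (SE, edgeR adjusted p = 0.00333) under zeocin and -5.12 ± 0.91 (SE, edgeR adjusted p = 0.00284) under mock, with no overlap. 7HG0752290, which opened the first run and has no description at hand, was called only under zeocin, at a log2FC of -1.33 (edgeR adjusted p = 0.0223), lost without WT zeocin replicate 2 or 3 or *hvatr.g* zeocin replicate 1 or 2 (up to 0.0913). Beyond the runs, genes too low to test continued in the same direction. The 3 genes described as UDP-N-acetylglucosamine 1-carboxyvinyltransferase, an enzyme name known from bacterial cell wall synthesis, had 0 counts in *hvatr.g*. In WT their sums were 10 counts for 7HG0752640, 26 for 7HG0752670 and 7 for 7HG0752760. The sesquiterpene synthase gene 7HG0752800 had 0 counts in *hvatr.g* and 38 in WT. The F-box gene 7HG0752420 had 0 counts in *hvatr.g* and 10 in WT. Near the end, 7HG0752920, described as insulin-like growth factor 2 mRNA-binding protein 3, was called lower under zeocin (log2FC -2.81, edgeR adjusted p = 0.0375), a call lost under 8 of 19 alternatives, among them leaving out WT mock replicate 1 or 2, WT zeocin replicate 1 or 3, *hvatr.g* mock replicate 2, or *hvatr.g* zeocin replicate 2 or 3.

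The cluster was not silent as a whole. Between the oxygenase and the thionin genes, 7HG0752350, 7HG0752360 and 7HG0752370 had counts in all 12 libraries. Under mock they averaged 19.0 ± 0.656, 50.2 ± 11.0 and 4.60 ± 0.916 CPM in *hvatr.g* and 14.9 ± 0.64, 47.5 ± 20.5 and 5.03 ± 2.43 CPM in WT (SD, n = 3 each). None was called. Their log2FCs ran from -0.13 to 0.35 under mock and from -0.29 to 0.27 under zeocin. 7HG0752790, next to the sesquiterpene synthase gene, was at 7.60 ± 0.585 CPM in *hvatr.g* and 8.28 ± 2.00 CPM in WT under mock (SD, n = 3 each). These 4 genes were singled out after their values were seen.

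**Figure D4:**
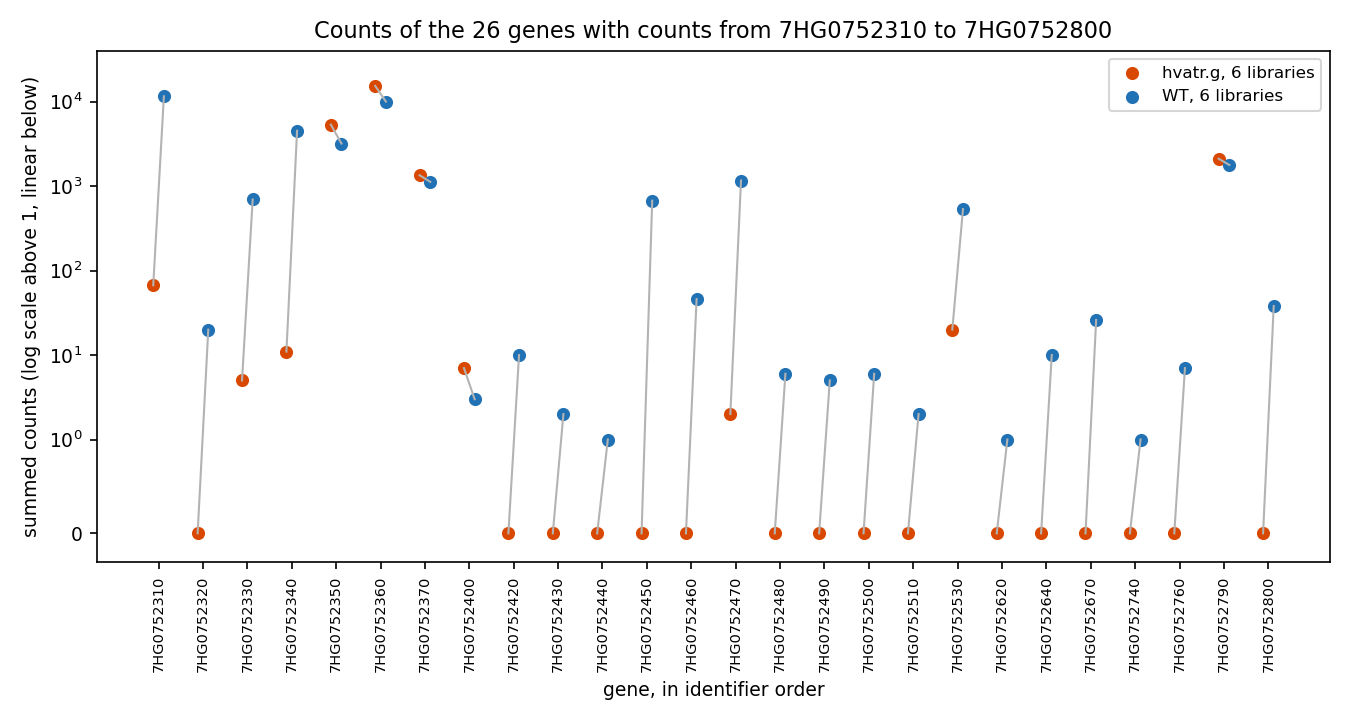
Summed counts over the 6 *hvatr.g* libraries (orange) and the 6 WT libraries (blue) for the 26 genes with counts from 7HG0752310 to 7HG0752800, in identifier order, on an axis that is linear below 1 and logarithmic above. The orange points of 16 genes lie at 0, while 5 genes, among them 7HG0752350, 7HG0752360, 7HG0752370 and 7HG0752790, have more counts in *hvatr.g*. The sums are not scaled to library size, and the *hvatr.g* libraries together were the deeper set.

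Few genes of the stretch were higher in *hvatr.g*. The widest rise called in both treatments was that of 7HG0750390, with no description at hand. It was at 1.35, 1.32 and 2.09 CPM in mock-treated *hvatr.g* against 0.0723, 0.31 and 0.107 CPM in mock-treated WT, a log2FC of 3.28 ± 0.47 (SE, edgeR adjusted p = 0.000758). Under zeocin the log2FC was 2.18 ± 0.44 (SE, edgeR adjusted p = 0.00611). 7HG0749740 had log2FCs of 3.27 under mock and 3.39 under zeocin without overlap. It was not called (edgeR adjusted p = 0.069 under mock and 0.0745 under zeocin). 7HG0749830 was the other gene called higher in both, by 1.21 under mock and 1.40 under zeocin on the log2 scale, but the mock call was lost without WT mock replicate 1 or 3 or *hvatr.g* mock replicate 3. Its neighbour 7HG0749840 rose under mock only (1.45, edgeR adjusted p = 0.0416), and that call was lost in 8 of 20 alternatives, among them leaving out WT mock replicate 1 or 2, any *hvatr.g* mock replicate, or *hvatr.g* zeocin replicate 2 or 3. 7HG0751150 rose under mock by 1.01, just past the fold threshold, and lost the call under 6 of 20 alternatives, among them leaving out WT mock replicate 1 or 2 or *hvatr.g* mock replicate 3. 7HG0747520 rose under zeocin by 1.10, a call lost without *hvatr.g* zeocin replicate 3. 7HG0752190, listed by the study under protein phosphorylation, had 74 counts in mock-treated *hvatr.g* and 3 in mock-treated WT, 14.4-fold higher with a 95% counting interval of 4.91 to 69.6. Its call (edgeR adjusted p = 0.0477) was lost without WT mock replicate 1 or 3, WT zeocin replicate 1, *hvatr.g* mock replicate 1 or 2, or any *hvatr.g* zeocin replicate (up to 0.153).

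By mean CPM over the 12 libraries, the 3 most abundant genes of the stretch were not called between the genotypes. Next in rank was 7HG0748760, called lower in both treatments as given above. 7HG0749360 averaged 403 ± 34.0 CPM in mock-treated *hvatr.g* and 389 ± 25.5 CPM in mock-treated WT, and 7HG0751550 averaged 239 ± 42.6 CPM in mock-treated *hvatr.g* and 299 ± 65.0 CPM in mock-treated WT (SD, n = 3 each). Neither was called. 7HG0750940 averaged 268 ± 13.6 CPM in *hvatr.g* and 510 ± 25.9 CPM in WT under mock (SD, n = 3 each), with no overlap. Its log2FC of -0.93 ± 0.10 (SE, edgeR adjusted p = 0.00012) stayed below the fold threshold. Altogether the stretch took 0.488% to 0.522% of the counts of an *hvatr.g* library and 0.562% to 0.631% of a WT library, and without 7HG0748760 the shares were 0.483% to 0.514% in *hvatr.g* and 0.523% to 0.584% in WT.

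Zeocin changed 9 of the 184 tested genes of the stretch in one genotype or both, against 1001 of all 26039 tested genes. Of the 184 tested genes, 4 rose and 4 fell in *hvatr.g*, or 2.17% each, against 1.29% and 2.15% of all tested genes (3.44% in either direction). In WT 5 rose and 1 fell, or 2.72% and 0.543%, against 1.12% and 0.902% of all tested genes (2.02% in either direction). Counts this small moved by more than 1.5 times with single libraries: the WT rises numbered 3 without WT mock replicate 1, 2 without WT mock replicate 2 and 2 without WT zeocin replicate 1. With the replicate number as a block, 2 genes instead of 1 fell in WT, the added one being 7HG0752120, described as an NBS-LRR protein, the main class of plant immune receptors (log2FC -1.20, adjusted p = 0.0207, against -1.35 and 0.322 without the block). Both comparisons called 5 of the 184 genes, of which 4 rose and 1 fell, against 421 of all 26039 tested genes.

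NAC proteins are plant transcription factors, the family to which the DNA damage regulator SOG1 belongs, and both NAC genes named here rose in both genotypes. 7HG0750170 was at 28.1, 18.6 and 24.5 CPM with zeocin and at 3.78, 3.41 and 4.39 CPM without it in *hvatr.g*, a log2FC of 2.62 ± 0.25 (SE, edgeR adjusted p = 4.72e-05). In WT it was at 19.8, 21.5 and 17.4 CPM with zeocin and at 5.74, 3.13 and 6.33 CPM without it, a log2FC of 1.95 ± 0.24 (SE, edgeR adjusted p = 0.000868). 7HG0751680 rose by 2.07 in *hvatr.g* (SE 0.35, edgeR adjusted p = 0.00249) and by 1.89 in WT (SE 0.35, edgeR adjusted p = 0.0106) on the log2 scale. The WT call of 7HG0751680 was lost without WT mock replicate 2 or WT zeocin replicate 1. The genotypes were not called different in either gene.

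The largest rise was that of 7HG0750850, a cellulose synthase-like gene of the family that makes cell wall polysaccharides. It was at 9.34, 9.36 and 3.14 CPM with zeocin and 0.915, 0.838 and 0.576 CPM without it in *hvatr.g*. In WT it was at 26.5, 39.8 and 32.7 CPM with zeocin and 4.70, 3.01 and 6.09 CPM without it. It rose by 3.20 in *hvatr.g* (SE 0.41, edgeR adjusted p = 0.000364) and by 2.84 in WT (SE 0.38, edgeR adjusted p = 0.00146). Its level was also lower in *hvatr.g* than in WT, by log2FCs of -2.18 under zeocin and -2.54 under mock (edgeR adjusted p = 0.00253 and 0.00162), and the difference between the zeocin responses was 0.36 with an SE of 0.53. 7HG0749520, a putative receptor protein kinase, rose by 1.60 in *hvatr.g* and 1.77 in WT. The thaumatin-like gene 7HG0752040, of a family of pathogenesis-related proteins, rose by 1.63 in WT (edgeR adjusted p = 0.0151) and had a log2FC of 1.00 in *hvatr.g* (edgeR adjusted p = 0.0943). The WT calls of both were lost without WT mock replicate 1 or 2 or WT zeocin replicate 1, and the *hvatr.g* call of 7HG0749520 without any *hvatr.g* mock replicate or *hvatr.g* zeocin replicate 1 or 3 (edgeR adjusted p up to 0.077).

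The genes that fell with zeocin included *CYCB2;3.B* (7HG0751620), a B-type cyclin, which drives entry into mitosis. It was at 3.72, 6.00 and 1.44 CPM with zeocin and at 63.2, 51.7 and 51.2 CPM without it in *hvatr.g*, a log2FC of -3.90 ± 0.45 (SE, edgeR adjusted p = 0.000153). In WT it was at 13.8, 8.54 and 23.6 CPM with zeocin and at 41.0, 41.0 and 48.5 CPM without it, a log2FC of -1.51 that was not called (SE 0.40, edgeR adjusted p = 0.0749), although the WT groups did not overlap. With the replicate block this fall was not called either (adjusted p = 0.0855), while DESeq2 (adjusted p = 0.00531) and limma-voom (adjusted p = 0.0179) called it. The study, which used DESeq2 on these same libraries, listed *CYCB2;3.B* among the cyclins significantly lowered by zeocin in WT. It was lower in *hvatr.g* than in WT under zeocin (log2FC -2.04, edgeR adjusted p = 0.00742) and was the only gene called in either genotype comparison whose sign differed between mock and zeocin. The difference between the zeocin responses was -2.39 ± 0.57 (SE), with an unadjusted p = 0.00132 and an adjusted p = 0.4 in edgeR. The kinesin-like gene 7HG0751110, of the microtubule motor family, fell by 1.60 on the log2 scale in *hvatr.g* (edgeR adjusted p = 0.0166), lost without *hvatr.g* mock replicate 1 or 3 or *hvatr.g* zeocin replicate 1 or 3. It was also called lower in *hvatr.g* than in WT under zeocin, with overlapping libraries, and 12 of 20 alternatives lost that call. The bZIP transcription factor gene 7HG0750100 fell by 2.78 in *hvatr.g* (SE 0.40, edgeR adjusted p = 0.000868) and had a log2FC of -0.83 in WT. The DUF241 gene 7HG0749150 fell by 2.34 in *hvatr.g* and by 1.27 in WT, where 11 of 20 alternatives lost the call, among them leaving out any zeocin library, WT mock replicate 3 or *hvatr.g* mock replicate 2 or 3. Markers of dividing cells moved with these genes: the summed level of 8 such genes was 20.9 to 42.5 CPM with zeocin and 208 to 293 CPM without it in *hvatr.g*, and 54.5 to 75.8 CPM with zeocin and 171 to 221 CPM without it in WT. All 8 were called lower with zeocin in each genotype. The study had named all 8 as lowered by zeocin in WT from these same libraries, so their fall is no independent check. Under zeocin 5 of the 8 were also called lower in *hvatr.g* than in WT, with a median log2FC of -1.01, and under mock 0 were. In bulk samples fewer dividing cells and less RNA per cell cannot be told apart, and their part in the values of *CYCB2;3.B*, 7HG0751110, 7HG0750100 and 7HG0749150 was not tested.

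**Figure D5:**
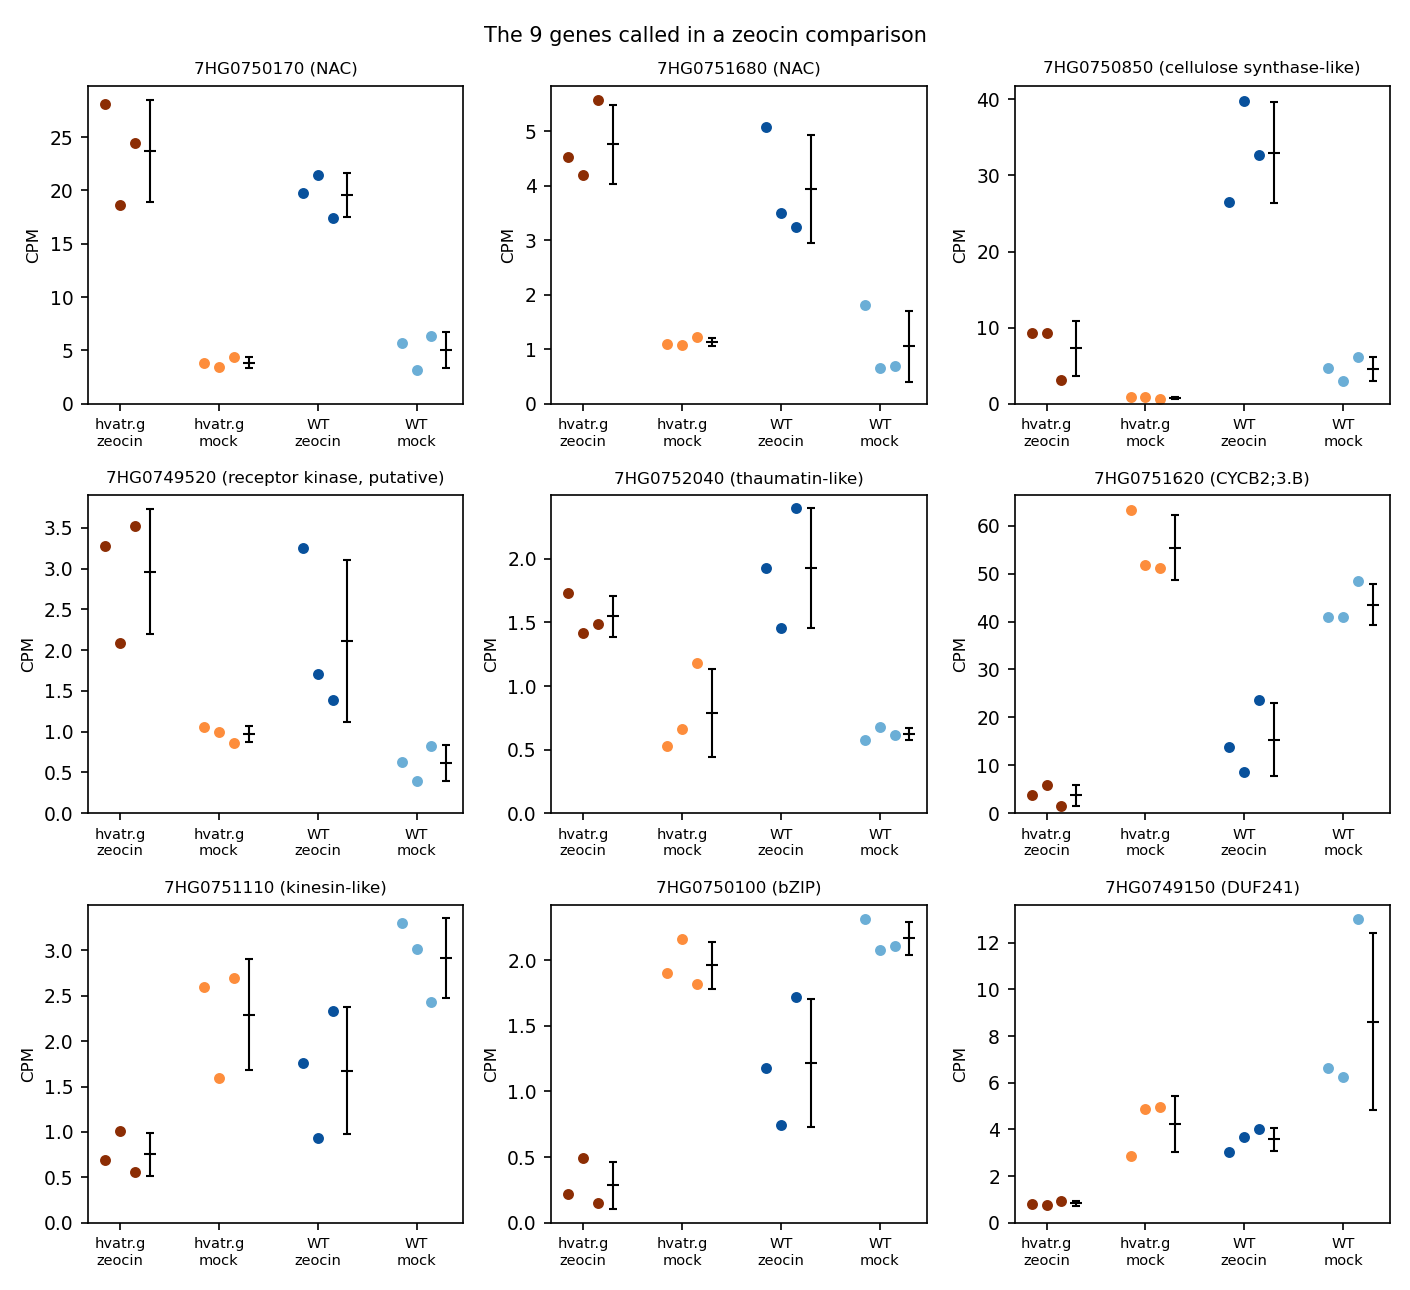
CPM in each of the 12 libraries for the 9 genes called in a zeocin comparison, by group, with mean and SD (n = 3) beside the points. The upper rows show the 5 genes that rose, with 7HG0750850 lower in *hvatr.g* than in WT in both treatments, and *CYCB2;3.B* lies between 1.44 and 6.00 CPM in zeocin-treated *hvatr.g*.

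No gene of the stretch passed the test for a difference between the zeocin responses of the genotypes, nor did any of the 26039 tested genes (0.0%) in edgeR. At an unadjusted p under 0.05 there were 6 such genes in the stretch and 1120 in all. After adjustment DESeq2 called 1 in the stretch, *CYCB2;3.B* (adjusted p = 0.013), and 120 in all, and limma-voom 0 and 1.

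Other genes that the study names in the stretch gave no values. The PIF1 helicase genes 7HG0749010 and 7HG0747680 had 0 counts in all 12 libraries and were dropped. Outside the stretch, a list of 21 DNA damage signalling genes was compared, not all of them known to act with *ATR*. It held the MRN complex, the checkpoint clamp and its loaders, ATM, the SOG1 family and WEE1, and 20 of its genes were tested. In *hvatr.g* against WT, 1 was higher and none lower in each treatment, with medians of 0.25 under mock and 0.14 under zeocin on the log2 scale. That gene was *SGL.C*, a SOG1-like transcription factor gene, higher by log2FCs of 3.20 under mock (edgeR adjusted p = 0.000329) and 1.64 under zeocin (edgeR adjusted p = 0.00462). Over all tested genes, 3.87% were higher and 4.58% lower under mock, with a median of 0.02. Under zeocin 3.46% were higher and 5.56% lower, with a median of 0.00. Zeocin raised 4 of the 20 in each genotype, *MRE11.B*, *SGL.A*, *SGL.C* and *SGL.D*, and lowered none, with medians of -0.07 in *hvatr.g* and 0.05 in WT. Over all tested genes zeocin raised 1.29% in *hvatr.g* and 1.12% in WT, and lowered 2.15% and 0.902%. The study had named these 4 as raised by zeocin in WT, and *SGL.C* as raised in *hvatr.g*, from these same libraries. Their calls are thus no independent check.

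Total counts per library ran from 36100439 to 74699245. Log2 CPM correlated between libraries of 1 group with Pearson's r of 0.966 to 0.989 across genes, which are not independent replicates, and no library was a copy of another. Leaf genes, 6 for photosynthesis, summed to 0.0265 to 0.267 CPM in *hvatr.g* and 0.28 to 2.43 CPM in WT, low in both but without overlap. The 1 leaf gene high enough to test was called lower in *hvatr.g*, with log2FCs of -3.71 under mock and -4.45 under zeocin. Genes of ion uptake, taken here as markers of older root tissue, were lower in *hvatr.g*. All 7 were called lower in both treatments, and their summed level was 24.3 to 32.3 CPM in *hvatr.g* and 119 to 291 CPM in WT. The study had picked genes of this list and of the dividing-cell list from these libraries. The part of the leaf and ion uptake genes in the genotype differences of the stretch was not tested.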

How the data were processed

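Per the labels and the study's methods, paired reads were trimmed, aligned to Morex v3 by HISAT2 2.1.0 and counted per transcript model by Subread 1.5.2, and the authors deposited raw counts. Handling of strand and multi-mapping reads is not given in the sources used here. The members, lists and rules were chosen with earlier results of these data known. In R 4.3.3, edgeR 4.0.16 (filterByExpr, TMM scaling, quasi-likelihood F test) was fitted to all 12 libraries with 1 coefficient a group, adjusting p-values by Benjamini-Hochberg over 26039 genes. The SE was the size of the log2FC over the root of F. Alternatives were DESeq2 1.42.0, limma 3.58.1 (voom), other filters and scaling, the compared groups alone, a replicate block, summed transcript rows, other stretch limits and leaving out each library. The fit was tested on simulated data. Descriptions and symbols came from the study's supplement, and the 322 rows belong to 319 genes. Named are *ATR*, its 3 nearest tested genes on each side, genes the study names, the 10 largest called rises and falls of each genotype comparison, the 5 of each zeocin comparison, runs, genes near 0 in 1 genotype and the 3 most abundant genes. 7HG0747230, 7HG0748270, 7HG0748670, 7HG0748750, 7HG0749090, 7HG0749200, 7HG0749740, 7HG0752120, the untested cluster genes and the window 7HG0752310 to 7HG0752800 were chosen after their values were seen. Bounds set each library without counts at 3 counts, and the 95% intervals are exact Poisson; both cover counting error only. The libraries of a group are biological replicates in the study's methods. Deviations of same-numbered libraries correlated at 0.312, 0.382 and 0.543 between WT zeocin and WT mock. In no other pair of groups were all 3 correlations above 0.1, but over all groups 11 of 18 same-numbered pairs were. A library correlated best with the same-numbered library of another group in 23 of 36 comparisons. The main fit took no account of the replicate number.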

Additional observations from a re-analysis of the deposited data

How the results depend on the processing

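In *hvatr.g* against WT the counts of lower genes were stable, at 20 to 25 under mock and 20 to 26 under zeocin with 1 library left out, against 24 in each with all 12. The small counts moved more. Higher genes under mock numbered 3 with only the compared groups fitted and 8 with no filter, and 1 to 6 with a library left out, with 1 without WT mock replicate 1, 2 without *hvatr.g* mock replicate 3, and 3 without *hvatr.g* mock replicate 2 or *hvatr.g* zeocin replicate 2 or 3. Under zeocin they numbered 7 with no filter and 3 to 5 with a library left out. Zeocin rises in WT numbered 3 with only the compared groups fitted and 2 to 7 with a library left out. Zeocin falls in WT numbered 2 with DESeq2, 2 with no filter, 0 with only the compared groups and 0 to 1 with a library left out, being 0 without WT mock replicate 3, WT zeocin replicate 1 or 2, *hvatr.g* mock replicate 2 or 3 or *hvatr.g* zeocin replicate 1. In *hvatr.g* both zeocin counts stayed at 3 to 5. With the replicate block, 2 genes fell in WT instead of 1, and no other count in the stretch moved by over 1.5 times. The difference of the zeocin responses gave 1 call with DESeq2 and 0 with each library left out. The log2FC of *ATR* ran from 0.15 to 0.50 under mock and 0.32 to 0.58 under zeocin without a call.

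Without the fold threshold the median share called in the other stretches under mock was 16.9%, and the *ATR* stretch held 22.3% against at most 22.1%. Under zeocin it held 22.8% against at most 23.3%, with 2 stretches above it. Near-0 genes numbered 1 at 0 counts against at least 10 in each library, and 7 at 0 counts against a sum of at least 10, a limit added after the data were seen. Over 52 calls of genes named by rule, 934 of 1034 alternative values kept the call, 100 lost it and 0 reversed. Scaling by library size alone moved the median of all genes to 0.09 in both genotype comparisons. Genes with few counts in both genotypes could not be tested at this depth. The causes of these shifts were not tested.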
